A study of Mus musculus with 8 samples.

Results

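Accessible chromatin was examined around Prdm1 and Bcl6, a pair of genes for transcriptional repressors, in thymic group 2 innate lymphoid cells (ILC2s) with and without activated E47. Every deposited ATAC-seq peak with a summit in either gene body, or within 150 kb of it, was taken in mm10. After overlapping peaks were joined within each list and matched across lists by overlap of 1 bp or more, 36 of 60835 regions were found, 24 at Prdm1 and 12 at Bcl6. ATAC-seq marks open chromatin by where the Tn5 transposase cuts. Cells were taken from the thymus of C57BL/6 mice of the plck-Id1 genotype, which carry Id1, an inhibitor of E proteins, as a transgene; plck commonly stands for the proximal Lck promoter, which is active in developing T cells. They were transduced with a MIGR1 retrovirus for GFP alone, or for GFP and E47-ER, in which the E protein E47 is fused to an estrogen receptor part that responds to 4-hydroxytamoxifen. GFP-sorted cells were expanded in cytokines, among them IL-7, IL-25 and IL-33, and all groups, the controls too, were given 4-hydroxytamoxifen for 4 or 16 h. The 8 samples formed 4 groups of 2, and the authors deposited 1 peak list per group, so there was no measure of the spread between samples and no test. The sample descriptions give the empty vector for the first sample of every group and the E47-ER vector for the second, against the titles and transduction labels that were followed here; read that way, each list would mix both vectors.

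Prdm1 encodes Blimp-1, a zinc finger repressor with a PR domain that drives plasma cell formation and shapes effector lymphocytes. Bcl6 encodes a BTB zinc finger repressor needed for germinal centre B cells and T follicular helper cells. The 2 proteins are known to repress each other's gene, and E proteins such as E47 bind the E-box, CANNTG. How far activated E47 changed the openness of these 2 loci is the question the comparison of vectors bears on.

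The lists held between 40649 and 52846 regions, the first for E47-ER and the last for GFP, both at 16 h. The lists carry no read depth, on which the number of calls depends. Of 8 ILC2 marker genes, all 8 had a region within 1 kb of the gene in every list, as did 2 of 5 T cell, 2 of 4 B cell and 2 of 4 myeloid markers; Cd3g, Cd8a, Ms4a1, Lyz2 and Csf1r were among those with none.

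Both genes lie on the minus strand. RefSeq (GRCm38.p6, the assembly of mm10) places Prdm1 at chr10:44437174-44528558, a body of 91.4 kb that extends far upstream of its 1 listed start at 44458748, and Bcl6 at chr16:23965050-23988866, a body of 23.8 kb with starts at 23988852 and 23981283. The promoters, from 250 bases before to 50 after each start, are shown because the start of Prdm1 and the first start of Bcl6 lay in regions called in all 4 lists, whereas no list held a region over the second start of Bcl6. They are chr10:44458699-44458998, chr16:23988803-23989102 and chr16:23981234-23981533, all on the minus strand, read 5′ to 3′ with E-boxes (CANNTG) in capitals.
Prdm1 promoter: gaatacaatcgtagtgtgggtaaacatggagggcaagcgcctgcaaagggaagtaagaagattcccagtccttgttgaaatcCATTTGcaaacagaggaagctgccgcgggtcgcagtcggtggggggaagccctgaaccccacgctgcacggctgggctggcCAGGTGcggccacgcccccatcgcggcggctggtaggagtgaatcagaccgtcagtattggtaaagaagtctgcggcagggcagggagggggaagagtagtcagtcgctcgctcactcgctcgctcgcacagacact
Bcl6 first promoter: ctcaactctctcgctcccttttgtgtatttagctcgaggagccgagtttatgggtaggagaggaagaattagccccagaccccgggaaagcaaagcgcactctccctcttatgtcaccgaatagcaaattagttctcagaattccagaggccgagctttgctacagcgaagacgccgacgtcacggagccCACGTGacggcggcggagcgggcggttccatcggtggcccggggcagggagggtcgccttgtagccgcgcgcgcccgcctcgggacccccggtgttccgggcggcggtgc
Bcl6 second promoter: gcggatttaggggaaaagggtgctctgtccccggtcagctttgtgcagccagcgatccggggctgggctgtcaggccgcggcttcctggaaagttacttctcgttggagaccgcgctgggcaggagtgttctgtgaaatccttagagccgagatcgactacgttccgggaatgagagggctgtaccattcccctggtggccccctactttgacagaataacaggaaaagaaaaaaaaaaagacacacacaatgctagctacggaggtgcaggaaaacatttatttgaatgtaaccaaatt
Counting bases back from the start, the Prdm1 promoter held CATTTG at 168 and CAGGTG at 87, the latter a match on the reverse strand to CACCTG, an E-box form known for E proteins. The first Bcl6 promoter held 1 E-box, CACGTG, at 60, and the second none. An E-box was found in 72.3% of the 32851 RefSeq promoters of the same length and CACCTG, on either strand, in 20.2%. No promoter of the 2 genes held CAGCTG, which 16.3% of all promoters did. The motif TTCNNNGAA, of the kind known for STAT proteins and BCL6, matched once in the first Bcl6 promoter (TTCTCAGAA) and 3 times in the second (TTCCTGGAA, TTCTGTGAA and TTCCGGGAA), not in the Prdm1 promoter, and in 8.30% of all promoters. GAAAGT, of the kind known for IRF proteins and Blimp-1, matched once, in the second Bcl6 promoter, where it overlaps TTCCTGGAA, and in 14.3% of all promoters. All motifs were searched on both strands, and CACCTG and CAGCTG are forms of CANNTG. Matches describe the sequence and not binding.

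At the Prdm1 start, the summit lay between 43 and 56 bp after the start in every list. Its fold enrichment, the authors' ratio of the peak over local background, was 14.3 in E47-ER and 14.9 in GFP at 4 h, and 13.5 and 14.8 at 16 h. The 4 values were close, with both GFP lists slightly above both E47-ER lists. At the first Bcl6 start, a summit lay between 11 and 20 bp before the start in every list, with folds of 11.3 in E47-ER and 13.2 in GFP at 4 h and of 8.78 and 8.88 at 16 h. A second summit in the same region, between 152 and 156 bp after the start, had folds of 9.64 and 12.1 at 4 h and of 10.8 and 10.5 at 16 h. With either vector, the summit at the start was thus the higher of the 2 at 4 h and the lower at 16 h. The nearest summits to the second Bcl6 start lay at least 917 bp before it.

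No region of Prdm1 or Bcl6 was called with 1 vector only at both times, for E47-ER (0 of 36, against 3.43% of all regions) or for GFP (0 of 36, against 4.56%). Regions called in all 4 lists made up 12 of 24 at Prdm1 (50%; 95% exact Clopper-Pearson interval 29.1 to 70.9) and 8 of 12 at Bcl6 (66.7%; 34.9 to 90.1), against 48.8% of all regions. The intervals, here and below, cover counting error only. At 4 h, Prdm1 had 2 E47-only and 0 GFP-only regions among 19 called at that time, and Bcl6 also had 2 and 0, among 11; over all regions the shares were 22.7% and 9.73%. At 16 h, Prdm1 had 4 E47-only regions of 23 (17.4%; 4.95 to 38.8) and 6 GFP-only regions (26.1%; 10.2 to 48.4), and Bcl6 had 0 and 3 of 11, against 8.38% and 29.6% of all regions. For E47-only and GFP-only regions at 4 h and at 16 h, the exact interval of each gene held the share of all regions. With so few regions the intervals were wide, 0 to 28.5 for 0 of 11, so this does not show that the shares were alike. They also take neighbouring regions as independent. Combinations with no member at either gene were those missing only from E47-ER at 4 h (1.24% of all regions), missing only from GFP at 4 h (4.29%), GFP at 4 h alone (2.24%), both 4 h lists alone (1.28%), and GFP at 4 h with E47-ER at 16 h (0.334%). When only the 40649 regions of highest −log10 p were kept from each list, the balance at Prdm1 turned, to 1 E47-only and 2 GFP-only regions at 4 h and to 5 and 3 at 16 h. Over all regions these shares were then near even, 13.7% and 13.5% at 4 h and 15.9% and 16.6% at 16 h. With such lists Prdm1 region 3 was GFP-only at both times, as 5.01% of all regions were. Prdm1 region 2 was then held by GFP at 4 h and E47-ER at 16 h alone. Both are exceptions to the classes with no member given above.

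**Figure D1:**
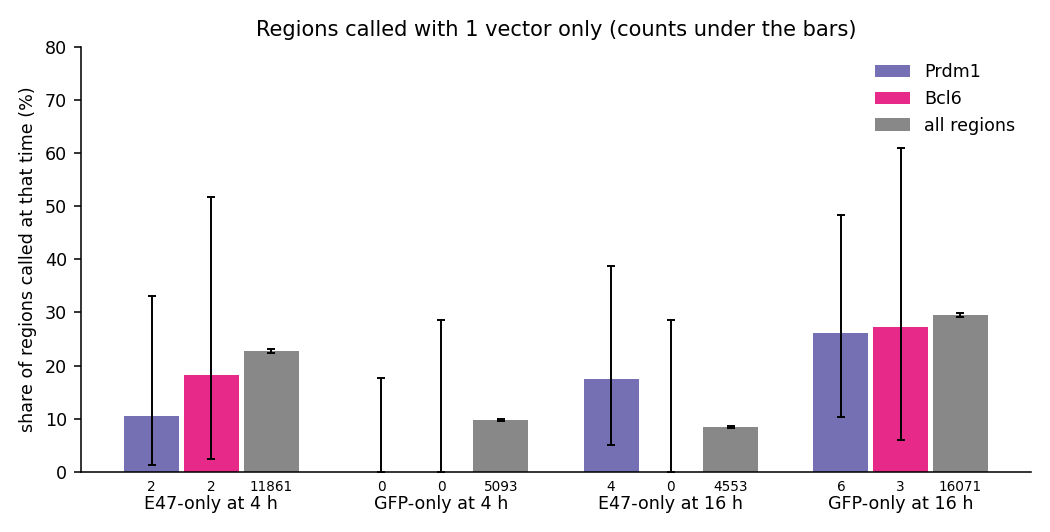
Share of the regions called at a time (y axis, percent) that were called with 1 vector only, for Prdm1, Bcl6 and all regions; the bars carry 95% exact binomial intervals and the counts stand under them. The intervals of both genes are wide and hold the share of all regions in each of the 4 classes.

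The regions called in fewer than 4 lists ranked lower than those in all 4, at both genes and over all regions. Each region was ranked by −log10 p against the other regions of a list, and its highest percentile over the lists that hold it was taken. The −log10 p comes from the same peak calling as the call itself, and a region in more lists has more values to take the highest from. The order of both kinds of region was thus largely set in advance, and only the values of the genes beside those of all regions are informative. Its median was 22.9 for the 12 such regions of Prdm1 and 15.1 for the 4 of Bcl6, and 67.5 and 69.3 for those in all 4 lists; over all regions it was 21.9 and 73.4. Of these 16 regions, 3 lay above the median of a list that held them, against 9.66% of all regions in 1 to 3 lists.

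In the Prdm1 window, the regions are numbered 1 to 24 along the chromosome, so that low numbers lie downstream of the gene. Of the 24, 12 had their leading summit downstream of the gene body, 8 inside it and 4 upstream. Summits of 3 regions fell in Atg5, an autophagy gene and the only other protein-coding gene in the window, and 2 in the long noncoding RNA gene Gm35154. The highest folds were at region 21 (chr10:44529188-44529966), 923 bp upstream of the far end of the gene body and 70.7 kb before the listed start. E47-ER had 24.9 and GFP 21.7 at 4 h, followed by 23.6 and 24.5 at 16 h. Its leading summit differed by at most 7 bp between lists, and neither vector was the higher at both times. Regions 21 and 19 had the highest −log10 p of the window, region 19, at the listed start, leading in GFP at 4 h and region 21 in the other lists; the percentiles of region 19 ran from 84.3 to 90.5.

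Region 23 (chr10:44609181-44609589), 80.9 kb upstream of the gene body, had folds of 18.0 in E47-ER and 15.9 in GFP at 4 h, and of 13.9 and 21.1 at 16 h. E47-ER was thus the higher at 4 h and GFP at 16 h. The log2 ratio of E47-ER over GFP was 0.18 at 4 h, at percentile 64.6 of that ratio over the 35382 regions shared by both 4 h lists, and -0.60 at 16 h, at percentile 7.82 over 33682 shared regions. Among shared regions whose geometric mean fold was within 1.2 times of its own, the 16 h value stood at percentile 2.59. Region 24 (chr10:44615637-44615939), 87.2 kb upstream of the gene body, was called in E47-ER at 16 h alone (fold 12.2, percentile 50.7), as 2.28% of all regions were. It was the strongest region that only 1 list held at either gene.

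**Figure D2:**
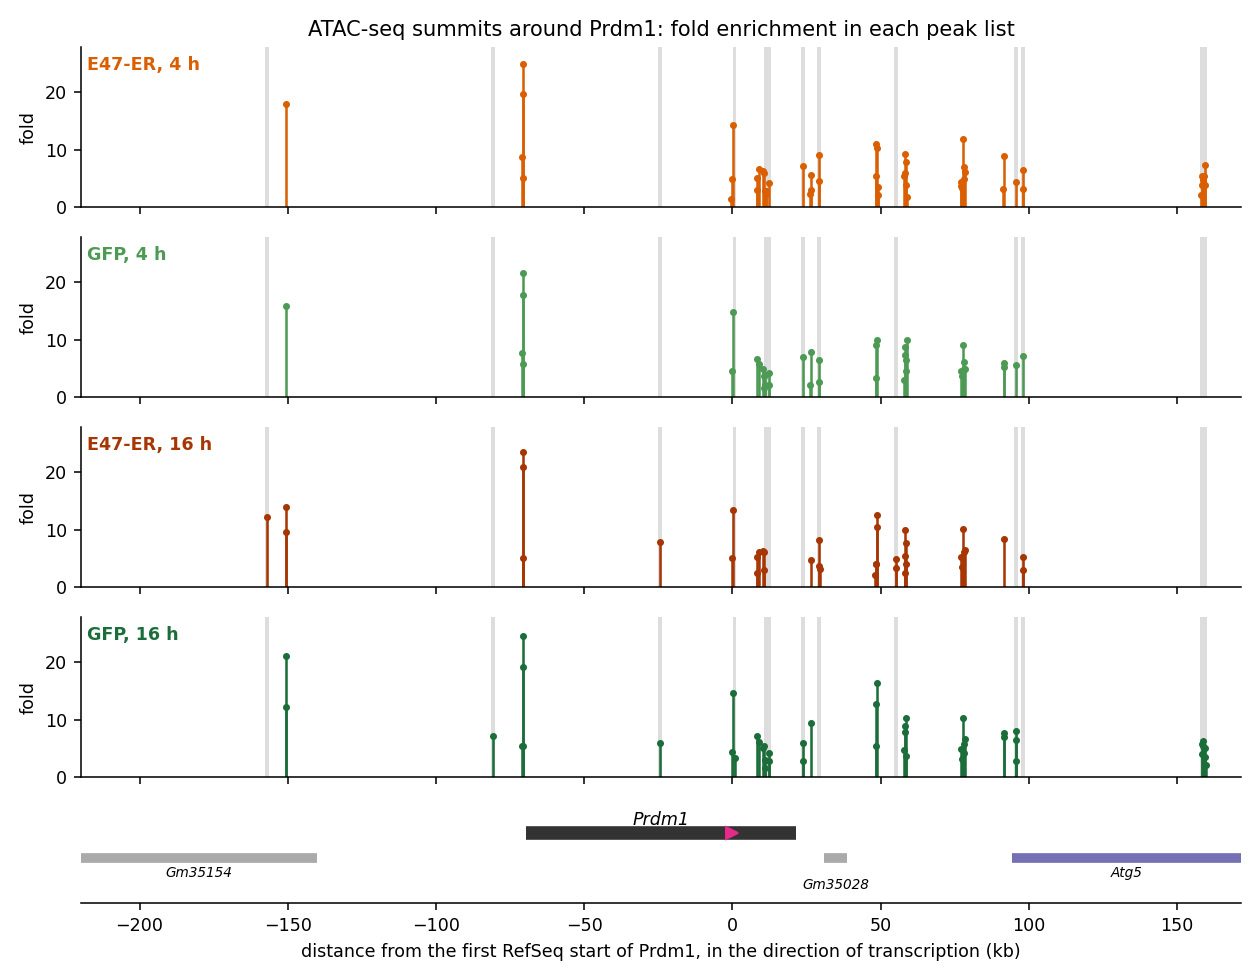
Fold enrichment (y axis) of each summit within 150 kb of the Prdm1 gene body in the 4 lists, by distance from the listed start in the direction of transcription (x axis, kb); grey bands mark regions missing from 1 or more lists, the dark bar is the gene body, and triangles are RefSeq starts. The summits 70.7 kb before the start are the highest in every list, and the one 157 kb before it is present only in E47-ER at 16 h.

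The 3′ flank of Prdm1 held neighbouring regions whose ratios at 4 h lay in opposite directions. Region 10 (chr10:44429316-44429813), 7.49 kb beyond the 3′ end of the gene body, was called in every list except GFP at 16 h, a class that held 1.44% of all regions. Its folds were 9.09 in E47-ER and 6.42 in GFP at 4 h and 8.32 in E47-ER at 16 h, with a leading summit that moved by at most 5 bp. Region 11 (chr10:44432172-44432611), 4.76 kb beyond the 3′ end, was in all 4 lists with folds of 5.53 in E47-ER and 7.86 in GFP at 4 h, and 4.72 and 9.49 at 16 h. GFP was the higher at both times, and the leading summit agreed within 4 bp. The log2 ratio of -0.51 at 4 h stood at percentile 2.16 of all shared regions, and that of -1.01 at 16 h at percentile 1.13; among regions of like fold the percentiles were 3.54 and 0.886. Region 11 was the lowest of the Prdm1 and Bcl6 regions in this ratio at both times. Region 12, 2.35 kb beyond the 3′ end, had folds of 7.11 in E47-ER and 6.94 in GFP at 4 h and 6.05 in GFP at 16 h, and was missing only from E47-ER at 16 h, as 6.67% of all regions were.

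Within the transcribed part of Prdm1, regions 15, 16 and 17 lay between 8.42 kb and 10.4 kb after the start and were in all 4 lists. Region 15 (chr10:44447793-44448422) had folds of 6.27 in E47-ER and 4.84 in GFP at 4 h and 6.31 and 5.50 at 16 h, E47-ER being the higher at both times. Region 17 (chr10:44450167-44450566) had the reverse order, with 5.07 and 6.66 at 4 h and 5.28 and 7.26 at 16 h. Region 16, 195 bp from region 17, had 6.58 and 5.73 at 4 h and 6.15 in both lists at 16 h. The log2 ratios of region 15 stood at percentiles 86.1 and 88.5 of shared regions at 4 h and 16 h, and those of region 17 at 4.15 and 14.0. Region 13, 12.5 kb after the start, was missing only from E47-ER at 16 h, although its folds in the other lists, 4.19 in E47-ER and 4.21 in GFP at 4 h and 4.30 in GFP at 16 h, hardly differed. Region 14, 197 bp from region 15, was called in E47-ER at 4 h alone with a fold of 2.83, and region 18, 421 bp from region 19, in GFP at 16 h alone with 3.41.

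**Figure D3:**
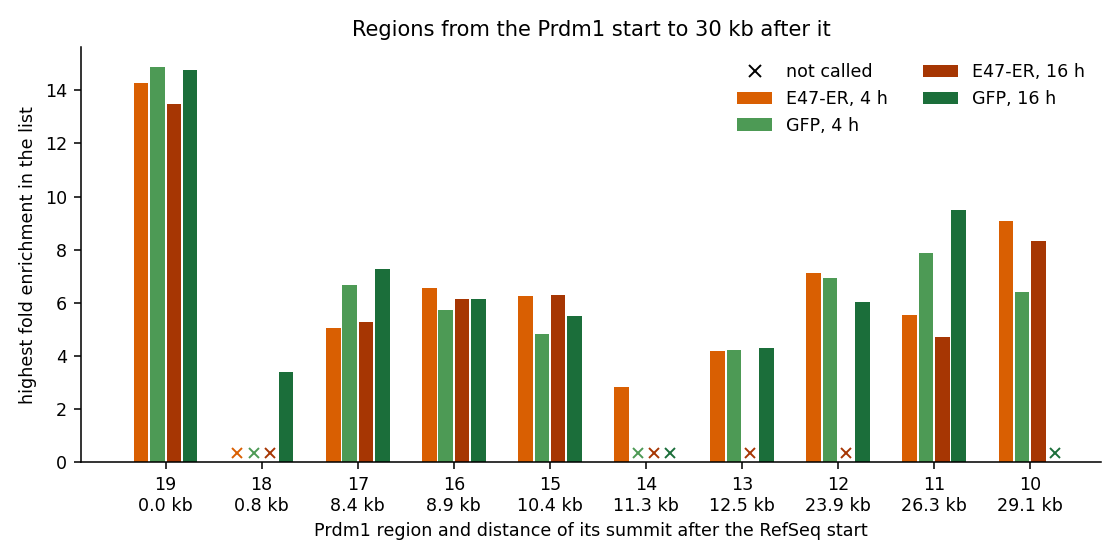
Highest fold enrichment (y axis) of each Prdm1 region from the start to 30 kb after it (x axis, region number and distance of its summit), in the 4 lists; a cross marks a list in which the region was not called. GFP bars exceed E47-ER bars at both times in regions 11 and 17, E47-ER bars exceed GFP bars in region 15, and region 10 has no call in GFP at 16 h.

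Further downstream of Prdm1, 5 of 9 regions were in all lists. Region 5 (chr10:44380381-44381680), 56.2 kb beyond the 3′ end, held the most summits of these, 8 and 6 in E47-ER and GFP at 4 h and 5 and 6 at 16 h. Its folds were 11.95 and 9.16 at 4 h, then 10.2 and 10.4 at 16 h, so the vectors differed at 4 h and were close at 16 h. Region 4, 69.9 kb beyond the end, had 8.98 in E47-ER and 5.89 in GFP at 4 h, at percentile 96.2 of the ratio, and 8.42 and 7.64 at 16 h. Region 6 (37.1 kb) had 7.83 and 9.95 at 4 h and 7.74 and 10.3 at 16 h, GFP being the higher at both times. Region 7, separated from it by 55 bp, had 9.33 and 8.77 at 4 h and 9.98 and 8.88 at 16 h, with E47-ER the higher. Region 9 (27.3 kb) had 11.1 and 9.92 at 4 h and 12.7 and 16.3 at 16 h, but its leading summit lay up to 250 bp apart between lists, so these values do not describe 1 position.

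Of the remaining Prdm1 regions, region 2, inside Atg5, was missing only from GFP at 16 h, like region 10, with folds of 6.52 in E47-ER and 7.12 in GFP at 4 h and 5.34 in E47-ER at 16 h. Region 3, also in Atg5, was missing only from E47-ER at 16 h, with 4.48 and 5.64 at 4 h and 7.99 in GFP at 16 h. Region 1, at the far end of the window in Atg5, was held by E47-ER at 4 h (7.38) and GFP at 16 h (6.39), the lists with the most regions, a class of 4.57% of all regions. Region 8 was called in E47-ER at 16 h alone (4.91), region 22 in GFP at 16 h alone (7.23, a class of 10.6%), and region 20, inside the gene body and 24.6 kb before the start, in both 16 h lists alone (7.92 in E47-ER and 5.94 in GFP; 1.08%). The outermost Prdm1 region inside the limit had a summit 137 kb downstream (fold 7.38) and the nearest beyond it 168 kb downstream (21.8, in all 4 lists); upstream these were at 87.2 kb (12.2) and 174 kb (9.32, in all 4 lists).

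At Bcl6, 4 regions inside the gene body and 4 outside it were in all 4 lists. Besides the first start (region 10, chr16:23988473-23989063), 3 lay in the first part of the gene, 4.45 kb to 6.37 kb after the start. Region 8 (chr16:23982623-23982826) had folds of 10.4 in E47-ER and 8.64 in GFP at 4 h, and of 8.45 and 10.2 at 16 h. Region 7, 68 bp away, had 8.46 and 6.50 at 4 h and 6.66 and 6.96 at 16 h. In both, E47-ER was the higher at 4 h and GFP at 16 h. Region 9 was nearly flat, with 4.24 and 3.78 at 4 h and 4.27 and 4.18 at 16 h. Region 6, a 123 bp stretch 81 bp from region 7, was called in E47-ER at 4 h (3.53) and GFP at 16 h (3.10), at low percentiles of both lists.

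The highest folds at Bcl6 were far downstream, at region 1 (chr16:23837945-23838653), 127 kb beyond the 3′ end and inside the long noncoding RNA gene Gm31430. E47-ER had 18.4 and GFP 15.1 at 4 h, with 15.3 and 18.4 at 16 h, again with E47-ER above GFP at 4 h and below it at 16 h. Region 2 (chr16:23844594-23845090), 5.94 kb from it, was missing only from E47-ER at 16 h. Its folds were 10.9 and 7.97 at 4 h and 13.0 in GFP at 16 h, where it stood at percentile 58.3. It was the only region of Bcl6 above a list median that was not in all lists. Regions 4 and 5, 66.6 kb and 66.0 kb beyond the 3′ end, had 15.7 and 13.1 in E47-ER at 4 h, 12.3 and 11.2 in GFP at 4 h, 12.6 and 11.3 in E47-ER at 16 h, and 14.1 and 12.7 in GFP at 16 h. Both were higher in E47-ER at 4 h and in GFP at 16 h. Region 3, an 86 bp stretch 73 bp from region 4, was called in E47-ER at 4 h alone (5.18, a class of 7.21%). Sst and Rtp2, the other protein-coding genes in the window, held no summit.

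Upstream of Bcl6, region 11 was called in GFP at 16 h alone (fold 7.42, percentile 17.3), and region 12 (chr16:24136416-24137000), 148 kb upstream, was in all lists. The highest folds of region 12 were 9.87 in E47-ER and 11.2 in GFP at 4 h and 8.64 and 9.83 at 16 h. GFP was the higher at both times, but the leading summits lay up to 100 bp apart between lists. At the summit further upstream GFP was the higher at both times, with 7.02 in E47-ER and 9.83 in GFP at 16 h. At the summit nearer the gene E47-ER was the higher, with 9.06 and 8.24 at 4 h and 8.64 and 7.98 at 16 h. The nearest regions beyond the limit lay 162 kb upstream (13.0, in all 4 lists) and 355 kb downstream (8.90, E47-only at both times).

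**Figure D4:**
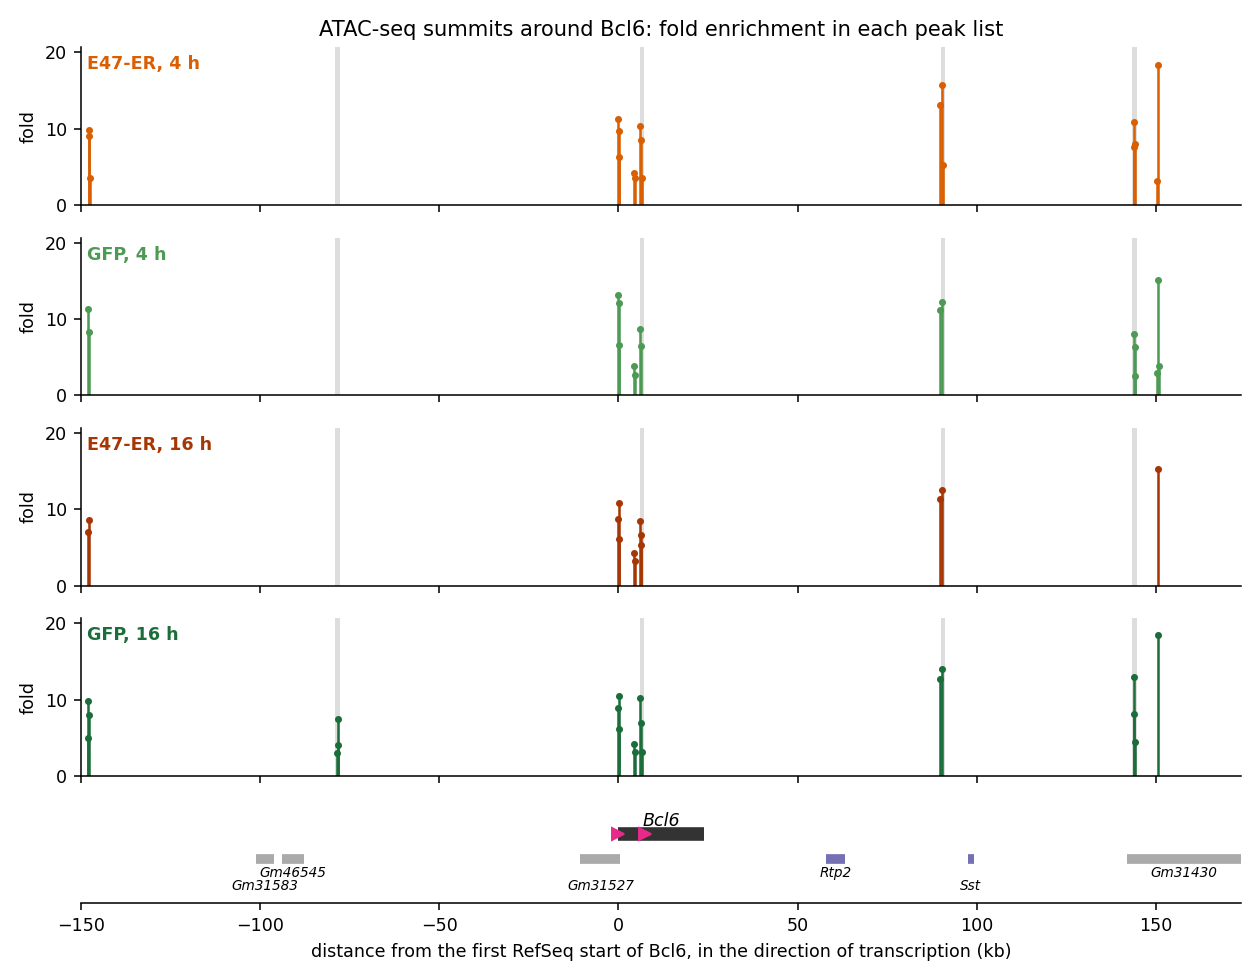
Fold enrichment (y axis) of each summit within 150 kb of the Bcl6 gene body in the 4 lists, by distance from the first RefSeq start in the direction of transcription (x axis, kb); grey bands mark regions missing from 1 or more lists, the dark bar is the gene body, and triangles are the 2 RefSeq starts. The highest summit of each list is about 151 kb after the start, and the region 144 kb after it has no summit in E47-ER at 16 h.

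Over the regions in all 4 lists, the ratios of the 2 genes were distributed as follows. At Prdm1, 4 of 12 had E47-ER higher at both times, among them region 16, whose 16 h values were equal as printed, 4 had GFP higher at both times and 4 had E47-ER higher at 4 h and GFP at 16 h. At Bcl6, 5 of 8 had E47-ER higher at 4 h and GFP at 16 h, and 1 region fell in each of the other classes. The Bcl6 region with GFP higher at both times was region 12, by its highest folds and not at each of its summits. That with GFP higher at 4 h and E47-ER at 16 h was region 10, also by its highest folds. At the summit at the start, GFP was the higher at both times, with 8.78 in E47-ER and 8.88 in GFP at 16 h. Of all 29667 regions in the 4 lists, 42.0% had E47-ER higher at 4 h and GFP at 16 h. Another 27.4% had E47-ER higher and 22.5% GFP higher at both times, and 8.02% had GFP higher at 4 h and E47-ER at 16 h. No test of the difference between the genes was made. The median log2 ratio of regions shared at a time was 0.09 at 4 h and -0.06 at 16 h for Prdm1 (17 and 13 regions), 0.26 and -0.16 for Bcl6 (9 and 8 regions), and 0.09 and -0.09 over all shared regions. The ratios of both genes lay on both sides of the median of all shared regions at each time. Those of Prdm1 ran from -0.51 to 0.61 at 4 h and from -1.01 to 0.42 at 16 h. Region 11 alone lay outside the middle 95%, 1 of 17 ratios at 4 h and 1 of 13 at 16 h. By definition 2.5% of all shared regions lie below that range and as many above it. The ratios of Bcl6 ran from -0.22 to 0.45 and from -0.27 to 0.04, inside the middle 95% of all shared regions at both times.

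**Figure D5:**
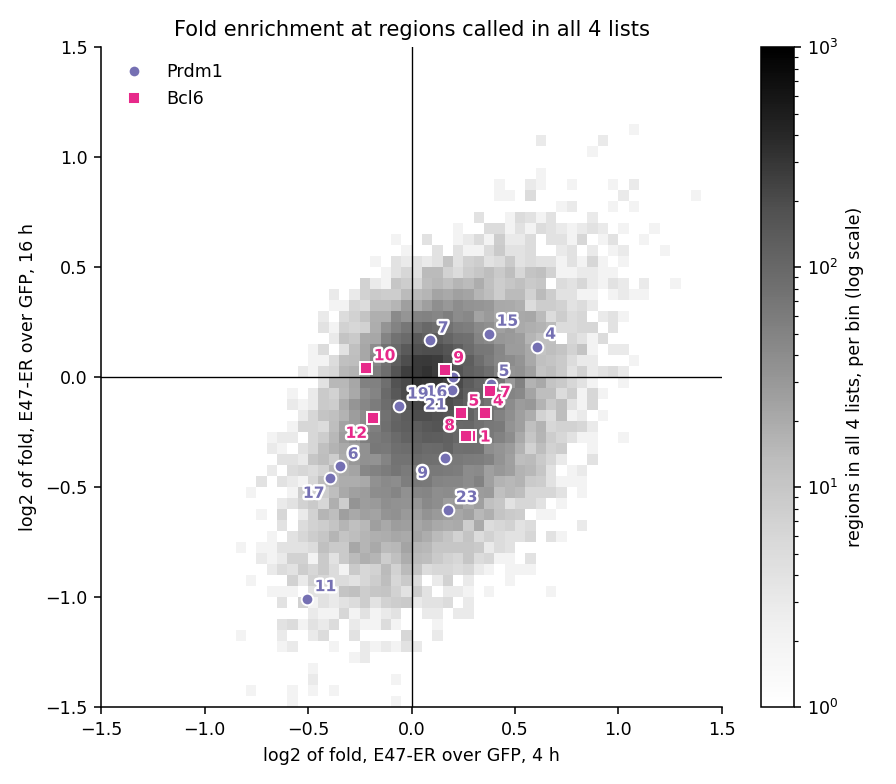
Log2 ratio of fold enrichment, E47-ER over GFP, at 4 h (x axis) and 16 h (y axis) for regions in all 4 lists; points are Prdm1 and Bcl6 regions with their numbers, and the grey scale counts all such regions per bin, 21 of which lie beyond the binned range. Prdm1 region 11 sits far to the lower left, near the rim of the cloud, and 5 Bcl6 regions sit to the lower right of the centre.

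Within a vector, the fold in E47-ER was higher at 16 h than at 4 h in 4 of 14 Prdm1 regions and 1 of 8 Bcl6 regions held by both E47-ER lists, against 31.1% of all such regions. In GFP it was higher at 16 h in 13 of 15 and 7 of 9, against 73.5%. The first start of Bcl6 was among the exceptions in GFP: the highest fold there went from 13.2 at 4 h to 10.5 at 16 h, a log2 ratio of -0.33 at percentile 1.48 of the regions in both GFP lists. In E47-ER it went from 11.3 to 10.8, at percentile 54.3. With both vectors these values belong to different summits of the region, up to 166 bp apart, as described for this start above.

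Single summits were compared as well. The lists held 55 and 40 summits in the Prdm1 window for E47-ER and GFP at 4 h, and 39 and 49 at 16 h. At 4 h, 15 of the E47-ER summits (27.3%) had no GFP summit within 150 bp, against 24.3% of all summits of that list, and 0 of the GFP summits had no E47-ER summit, against 12.1%. Of those 15, 8 belonged to region 1. At 16 h, 9 E47-ER summits (23.1%, against 13.1%) and 19 GFP summits (38.8%, against 28.4%) were unmatched. Region 1 also held 8 of these 19, and outside it 11 of 41 GFP summits at 16 h (26.8%) and 7 of 47 E47-ER summits at 4 h (14.9%) were unmatched. In the Bcl6 window, 3 of 19 and 1 of 17 were unmatched at 4 h, and 0 of 13 and 8 of 20 at 16 h; 6 of these 8 belonged to regions 2 and 11.

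Counted within 150 kb of each gene body, Prdm1 had more regions than 76.8% of the 21896 protein-coding genes and Bcl6 more than 40.4%, with a median of 14 regions per gene. The windows include the gene body, so they differ in length (391 kb for Prdm1 and 324 kb for Bcl6), and these ranks do not allow for it. Per 100 kb of window, Prdm1 had 6.13 regions and Bcl6 3.71. The genes whose regions were spread most alike over the 15 possible combinations of lists, by Bray-Curtis distance on the counts, were Nfia (0.080), Bcor (0.083) and Cnot3 (0.11) for Prdm1, and Cog7, Col8a1 and Islr2 (0.040 each) for Bcl6. Ties were broken by the alphabet: 3 genes stood at the distance of Cnot3 and 6 at that of the genes named for Bcl6. The likeness is over 4 lists only.

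Of 29 other genes of the Blimp-1 and BCL6 circuit, 17 had a region within 150 kb that was E47-only at both times and 16 one that was GFP-only at both times, 9 of them having both kinds and 5 neither. Of all protein-coding genes, 32.9% had the first kind, 38.5% the second, 16.3% both and 44.9% neither, but their median was 14 regions per gene against 27 for the list, and a gene with more regions has more chances to hold one. Together they covered 683 regions, of which 26 (3.81%) had calls at both times with E47-ER alone and 30 (4.39%) with GFP alone, against 3.43% and 4.56% of all regions. Among the 13 regulators of the pair, such as Irf4, Bach2 and the STAT genes, each gene had at least 1 such region, with 18 E47-only and 19 GFP-only of 311. Their median was 31 regions per gene. Id3, which encodes an inhibitor of E proteins, had the most E47-only regions of the list, 4 of its 38, beside 3 GFP-only ones. Maf, a transcription factor gene of helper T cells, had the most GFP-only regions, 6 of its 27, with 0 E47-only. The 7 corepressors, among them Bcor, whose product BCL6 recruits, had 2 E47-only and 3 GFP-only regions of 167. The 9 target genes had 6 and 8 of 205. Among them Ciita, the class II transactivator gene that Blimp-1 represses, held 3 E47-only regions and 1 GFP-only region of its 24. Stat3, Stat5a and Stat5b are neighbours, so their windows share regions, which were counted once in the totals of regions. The counts of genes include all 3, each with 2 E47-only regions, and do not allow for this sharing.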

How the data were processed

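ATAC-seq of 8 samples in 4 groups of 2 was deposited as 1 peak list per group. Groups follow the sample titles; nothing says whether samples of a group were separate cultures or animals. The submitters' processing notes name build mm10 and the tools MACS2, Bowtie2, cutadapt and DiffBind; their versions and roles were not given in the sources used here. Track names in the labels' descriptions speak of trimming, merging, removal of duplicates and of mitochondrial reads, a Tn5 step and pooling, and each list is named a conservative IDR set.

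Per the deposited lists, each line has a summit, a fold enrichment (ratio over local background), a −log10 p and a score capped at 1000; the score and the −log10 of q were not used. No deposited −log10 p was below 2.00.

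Lines were merged and matched as given above; the fold of a region is the highest of its summits. Fold and −log10 p belong to their own list: ratios between lists are set against the same ratio over all shared regions and are descriptions. Leading summits, percentiles and distances were computed with Python 3.11.15, pandas 2.3.3, numpy 2.4.6 and scipy 1.17.1, and figures with matplotlib 3.10.9. Promoter sequences are RefSeq's (GRCm38.p6); no genome was used, so peaks are not shown as sequence. The merging and matching code was tested on simulated data.

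Regions named by rule were those at gene ends, the highest of each list, and those held by 1 vector only above a list median; all other regions were named after their values were seen. The genes, lists and rules were chosen with earlier results of these data known. The circuit genes given with values (Id3, Maf and Ciita) are those with the most regions called with 1 vector only at both times, without ties; others are named only as examples of a role.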

Additional observations from a re-analysis of the deposited data

Results flagged for a closer look

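The balance of regions called with 1 vector only changed sign between 4 h and 16 h. The count of E47-only regions less that of GFP-only regions was 2 (4 h) and -2 (16 h) for Prdm1, and 2 and -3 for Bcl6. Over all regions the balance changed sign in the same way, with 22.7% E47-only and 9.73% GFP-only at 4 h and 8.38% and 29.6% at 16 h. The longer list was that of E47-ER at 4 h and that of GFP at 16 h. With lists of equal length the order at Prdm1 was reversed, with 1 E47-only and 2 GFP-only regions at 4 h and 5 and 3 at 16 h. Bcl6 then had 0 and 0 at 4 h and 0 and 1 at 16 h. The part of list length in these counts was not tested further.

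At 10 of the 20 regions in all 4 lists, the fold was higher with one vector at 4 h and with the other at 16 h. The log2 ratio of E47-ER over GFP at 16 h minus that at 4 h was -0.41 at Prdm1 region 5, -0.53 at region 9, -0.25 at region 21 and -0.78 at region 23. At Bcl6 it was -0.55 at region 1, -0.52 at region 4, -0.40 at region 5, -0.44 at region 7, -0.53 at region 8 and 0.26 at region 10. At Prdm1 region 9 and Bcl6 region 10 the leading summits lay up to 250 bp and 166 bp apart between lists, so these 2 values do not describe 1 position. In Prdm1 region 9 the order changed at both of these summits. In Bcl6 region 10, GFP was the higher at both times at the summit at the start. Each group had 1 list, so none of these differences between the times was tested. These 10 were picked by their change of order, so the shares are those of regions in all 4 lists. E47-ER was higher at 4 h and GFP at 16 h in 4 of 12 at Prdm1 and 5 of 8 at Bcl6, against 42.0% of all such regions. The reverse order was that of 0 at Prdm1 and 1 at Bcl6, against 8.02%.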

How the results depend on the processing

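The 10 counts of regions were recomputed under 6 other settings, which gave 60 values, 37 of them within 1.5 times of the reported count. These 37 include counts of 0 that stayed at 0, where a factor has no meaning. The tally is thus no measure of how stable such small counts are. A 50% overlap moved none. With lists of equal length, Prdm1 had 1 E47-only and 2 GFP-only regions at 4 h, and 5 E47-only and 3 GFP-only regions at 16 h. The balance at Prdm1 was thus reversed at both times. Bcl6 had 0 E47-only regions at 4 h and 1 GFP-only region at 16 h. With regions above the list median only, where a region can drop from 1 list by its rank alone, Prdm1 had 13 regions, 1 GFP-only at 4 h, and 1 E47-only and 3 GFP-only at 16 h, and Bcl6 had 7 regions and 1 E47-only at 4 h. Within 50 kb, Prdm1 had 1 E47-only region at 4 h and 2 at 16 h, and Bcl6 had 5 regions, 1 E47-only at 4 h and 1 GFP-only at 16 h. With single summits, Prdm1 had 45 positions, 15 E47-only at 4 h, and 9 E47-only and 19 GFP-only at 16 h, and Bcl6 had 1 GFP-only at 4 h and 8 at 16 h. Joining regions across gaps of under 200 bp, a setting added after the data had been seen, left Bcl6 with 0 E47-only regions at 4 h, since regions 3 and 6 lie within 81 bp of a region in all lists. No paired analysis was possible because each group has 1 list that pools its samples, and for the same reason no sample could be left out. Unknown depth limits every missing call: a region not called may be open below the threshold.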
